A study of Homo sapiens with 15 samples.

Results

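The genes described here are the 7 genes of the cyclin-dependent kinase (CDK) inhibitors and MYC, 8 of the 24880 loci in the deposited table of FPKM (fragment counts relative to transcript length and library total). They were taken by symbol, and all 8 have 1 row each. Polyadenylated RNA of HK-2 cells was sequenced in 15 libraries, in 5 groups of 3. HK-2 is an immortalised human line from the proximal tubule of the kidney, and the labels give its genotype as wild type. The first pair of groups received TGFb at 2 ug/ml together with FT895, an inhibitor of the histone deacetylase HDAC11, for 1 h or for 12 h. The second pair received the same TGFb with the vehicle DMSO for 1 h or for 12 h. The mock group received PBS and is labelled 0 h. No dose of FT895 stands in the labels read here. No group received FT895 without TGFb, and no vehicle group without TGFb has the times 1 h and 12 h. TGFb, time in culture and DMSO therefore cannot be told apart in the comparisons with mock. Between 12 h and 1 h, the length of exposure to TGFb and time in culture cannot be told apart either. The labels do not say that the libraries of a group are separate cultures, and p-values therefore speak only of the spread among the libraries, which may be technical.

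CDK inhibitors are proteins that hold back the kinases which drive cells from G1 into S phase. The Cip/Kip family (CDKN1A for p21, CDKN1B for p27, CDKN1C for p57) binds cyclin-CDK complexes, CDK2 complexes above all. The INK4 family (CDKN2A for p16, CDKN2B for p15, CDKN2C for p18, CDKN2D for p19) binds CDK4 and CDK6 and keeps cyclin D away from them; CDKN2A also encodes the unrelated protein ARF, which acts on MDM2, from a start of its own. MYC is a transcription factor that drives ribosome production and growth, and with its partner ZBTB17 (MIZ1) it represses CDKN1A and CDKN2B. In many epithelial cells the arrest of growth by TGFb is known for a fall of MYC and a rise of CDKN2B and CDKN1A through SMAD proteins. HK-2 cells were made with the papillomavirus genes E6 and E7, whose products act on p53 and on RB, proteins that act above CDKN1A and below the INK4 proteins.

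The 3 inhibitor genes that were higher after 12 h of TGFb than in mock cells are shown by the 250 bases before their RefSeq transcript start (assembly GRCh38.p14), written 5′ to 3′ on the strand of the gene. Capitals mark the GC box GGGCGG, the letters that SP1 is known to bind, on either strand; matches may overlap. The windows are chr6:36678464-36678713 (plus) for CDKN1A, chr9:22009306-22009555 (minus) for CDKN2B and chr19:10568980-10569229 (minus) for CDKN2D.
CDKN1A: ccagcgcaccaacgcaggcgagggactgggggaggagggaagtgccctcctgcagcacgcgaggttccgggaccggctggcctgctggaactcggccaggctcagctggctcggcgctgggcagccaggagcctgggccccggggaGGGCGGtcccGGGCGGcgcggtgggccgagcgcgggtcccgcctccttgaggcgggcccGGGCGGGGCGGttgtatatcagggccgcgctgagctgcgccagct
CDKN2B: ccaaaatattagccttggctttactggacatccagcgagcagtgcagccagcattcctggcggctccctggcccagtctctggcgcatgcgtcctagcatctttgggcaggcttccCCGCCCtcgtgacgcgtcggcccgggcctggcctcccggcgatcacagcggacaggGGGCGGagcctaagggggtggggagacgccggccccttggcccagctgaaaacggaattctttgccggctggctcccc
CDKN2D: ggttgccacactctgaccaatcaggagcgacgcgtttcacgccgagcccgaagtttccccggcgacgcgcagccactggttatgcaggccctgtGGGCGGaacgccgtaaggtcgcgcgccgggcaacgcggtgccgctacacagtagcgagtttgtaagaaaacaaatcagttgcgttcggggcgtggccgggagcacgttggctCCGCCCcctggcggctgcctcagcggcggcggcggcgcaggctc

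These letters occur 4 times in the CDKN1A window and 2 times each in the CDKN2B and CDKN2D windows. Of 35116 RefSeq windows of the same length, 42.6% hold a GC box. The SMAD core CAGAC was searched for as well, on both strands; 38.0% of all windows hold it, and the windows of CDKN1A, CDKN2B and CDKN2D hold none. RefSeq gave windows for 6 of the 8 genes, 9 in all, because CDKN2A has 2 and CDKN2C has 3 starts. The GC box occurs 5 times before the second CDKN2C start, more than in the CDKN1A window. It occurs 1 time each before the third CDKN2C start, the second CDKN2A start and the CDKN1B start. CAGAC was found at CDKN2A (1 match before the first start) and at CDKN2C (2 before the first and 1 before the third start). The E-box CACGTG, the letters MYC-MAX is known to bind, occurs before 2 of the CDKN2C starts and in 6.34% of all windows. A looser E2F-like pattern, TTTNNCGC, occurs once in the CDKN2D window and in 5.92% of all windows. GC content of the 3 printed windows was 76.4% (CDKN1A), 66.4% (CDKN2B) and 67.6% (CDKN2D). A match of letters is a description and shows no binding.

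**Figure D1:**
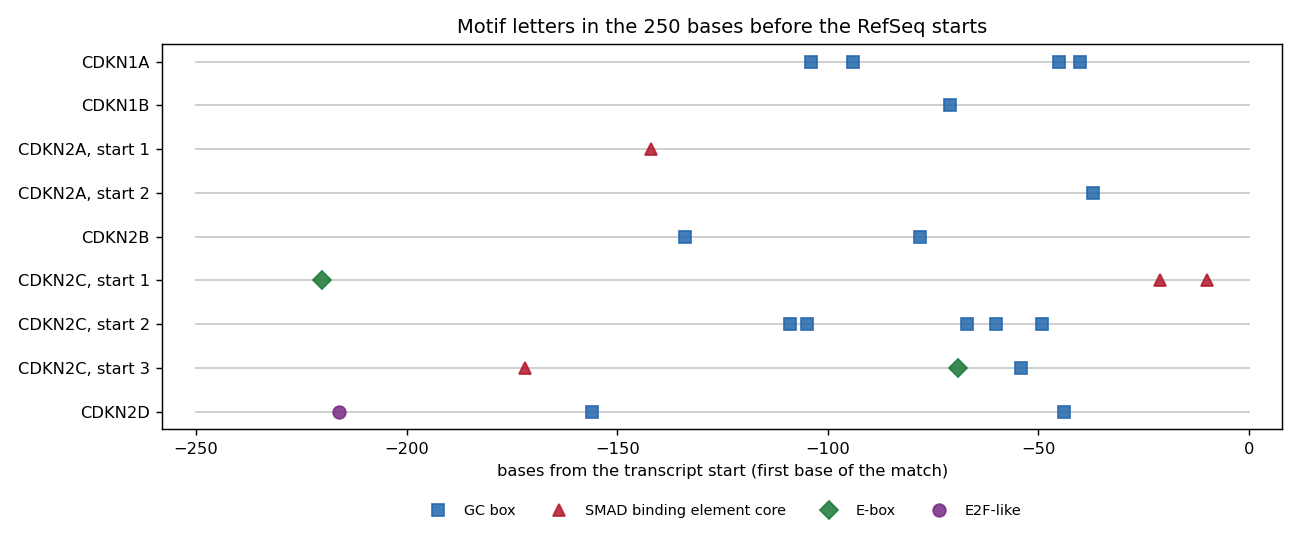
Positions of 4 motifs in the 250 bases before 9 RefSeq transcript starts of 6 inhibitor genes, in bases from the start (first base of the match), with matches on either strand. GC boxes stand in 7 of the 9 windows, with 5 before the second CDKN2C start and 4 before the CDKN1A start, and the SMAD core in 3.

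In GENCODE v29 on GRCh38 all 8 are protein-coding genes. CDKN1A (ENSG00000124762) is at chr6:36676460-36687339 on the plus strand, CDKN1B (ENSG00000111276) at chr12:12715058-12722371 on the plus strand, and CDKN1C (ENSG00000129757) at chr11:2883213-2885773 on the minus strand. CDKN2A (ENSG00000147889) at chr9:21967753-21995301 and CDKN2B (ENSG00000147883) at chr9:22002903-22009363 are neighbours on the minus strand. CDKN2C (ENSG00000123080) is at chr1:50960745-50974633 on the plus strand, CDKN2D (ENSG00000129355) at chr19:10566462-10569059 on the minus strand, and MYC (ENSG00000136997) at chr8:127735434-127741434 on the plus strand. Among the 28 pairs of these genes, CDKN2A and CDKN2B share stretches of 50 bases in their transcripts (31 of them, 0.681% of those of CDKN2A and 0.765% of those of CDKN2B), and the other pairs share none. DINOL overlaps CDKN1A on the opposite strand, CDKN2B-AS1 and AL359922.1 overlap CDKN2A and CDKN2B on the opposite strand, and AC008115.3 overlaps CDKN1B on its own strand. Strandedness is not stated, so reads of these partners cannot be told apart from those of the inhibitors.

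FPKM holds no read depth, which stays unknown; the sum of FPKM per library ran between 386532 and 434520, and between 11712 and 12023 loci reached 1 FPKM. The library TGFb 1 h replicate 1 stood apart: the SD of its residuals over all genes was 0.211 on the log2 scale, against 0.107 to 0.156 in the other 14. Of 18 epithelial and proximal tubule markers 10 reached 1 FPKM, among them KRT8 and PAX8, while CDH1 and LRP2 were listed at 0 in every library and CUBN, SLC34A1, AQP1, ANPEP and HNF4A stayed under 1 FPKM. Of 19 markers of leukocytes, endothelium, stroma, podocytes and distal tubule, only CD68 and LUM reached 1 FPKM, and 8 were listed at 0 in every library. The summed FPKM of these 19 was 40.4 to 43.6 with FT895 at 12 h and 38.3 to 43.5 with TGFb alone at 12 h. It was 50.6 to 53.5 with FT895 at 1 h, 52.4 to 53.3 with TGFb alone at 1 h and 50.6 to 53.5 in mock cells. CD68 and LUM held most of this sum. After 12 h of TGFb CD68 had a mean of 34.8 FPKM, against 42.2 FPKM in mock cells, and LUM 5.63 FPKM, against 9.68 FPKM. The part of this drop at 12 h in the results was not tested.

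All 8 genes passed the filter of 1 FPKM in at least 3 libraries, which left 12467 loci to test. A gene was called at an adjusted p under 0.05 (limma on log2(FPKM + 1), Benjamini-Hochberg over all loci tested). After 1 h of TGFb against mock, CDKN1A was higher and MYC and CDKN1B were lower, 3 of 8, where 8.98% of all loci were called (3.34% to 4.4% without 1 of the mock libraries). After 12 h against mock, CDKN2B, CDKN2D and CDKN1A were higher and none was lower, again 3 of 8, where 38.6% were called. Between 12 h and 1 h of TGFb 6 of 8 differed, 5 higher and 1 lower, where 41% of all loci were called. With FT895 present 6 of 8 differed between 12 h and 1 h, 4 higher and 2 lower, where 38.2% were called. The share of 3 of 8 after 12 h is thus near the background, and those of 6 of 8 between the times are above it. The 8 genes were chosen with earlier results of these data known, so a share above the background is no test of the set. The groups did not overlap for 4 of the 8 at 1 h against mock (29.9% of all loci), 4 at 12 h against mock (54.9%), 7 between 12 h and 1 h of TGFb (46.2%) and 7 between these times with FT895 (55.8%). Among all calls of 12 h against mock 36.7% were higher; this became 46.9% with quantile normalization and 52.9% with median-of-ratios scaling. The shares of higher calls between 12 h and 1 h were 41.1% without FT895 and 35.2% with it; median-of-ratios scaling made them 52.9% and 54.4%, and quantile normalization made the second 48.4%. The calls among these 8 genes keep their direction under both scalings. These comparisons share libraries (mock in the first pair, TGFb 1 h and 12 h in others), so they are not independent of each other.

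**Figure D2:**
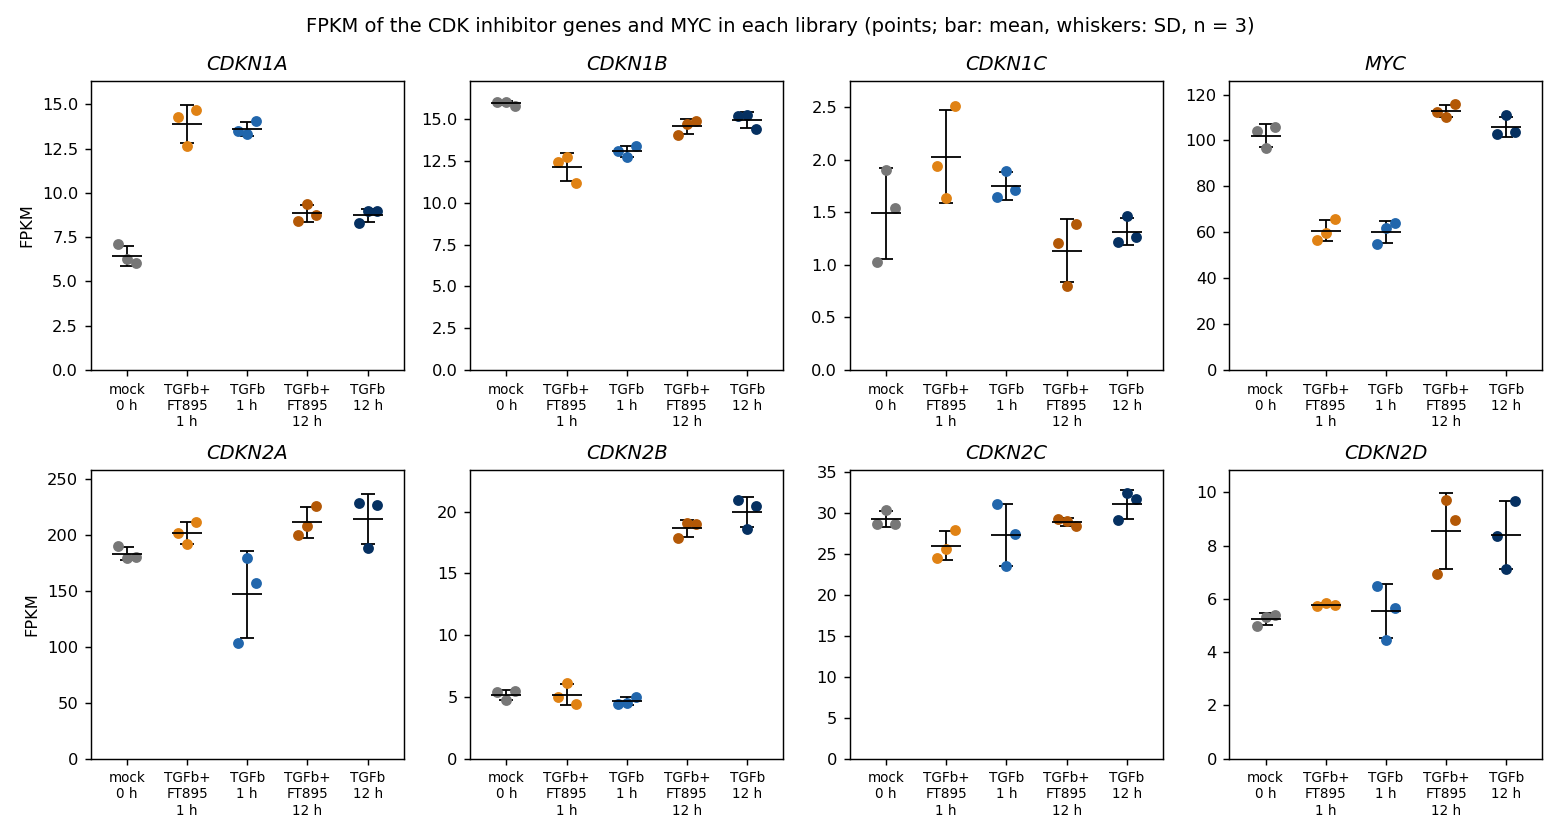
FPKM of the 7 inhibitor genes and MYC (y axes, from 0) in each of the 15 libraries (points), with the mean (bar) and SD (whiskers) of 3 libraries per group. CDKN1A is high and MYC low in the 6 libraries of 1 h, and CDKN2B stands at 17.9 to 20.9 FPKM in the 6 libraries of 12 h, above all others.

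CDKN1A, the p21 gene, rose within the first hour of TGFb and was part of the way back at 12 h. Its level was 13.5, 13.3 and 14.0 FPKM after 1 h of TGFb, against 7.08, 6.25 and 6.02 FPKM in mock cells. The groups did not overlap, and the mean was 2.11 times as high (log2 change 0.97 ± 0.07 SE, adjusted p 3.2e-07, limma). In bulk RNA a change per cell and a change in the share of cells that express a gene cannot be told apart, here and below. After 12 h of TGFb CDKN1A stood at 8.30, 8.95 and 8.95 FPKM, all above the 3 mock libraries, 1.35 times the mock mean (log2 change 0.39 ± 0.07 SE, adjusted p 0.000598, limma). Against 1 h of TGFb the 12 h level was lower, without overlap (log2 change -0.59, 95% interval -0.74 to -0.43, adjusted p 1.52e-05, limma). With FT895 the values were 8.40, 9.37 and 8.75 FPKM at 12 h, against 14.3, 12.6 and 14.7 FPKM at 1 h, and the log2 change between the times was again -0.59 (95% interval -0.75 to -0.44, adjusted p 1.39e-05, limma).

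CDKN1B, the p27 gene, moved the other way from CDKN1A and by less. It stood at 13.1, 12.8 and 13.4 FPKM after 1 h of TGFb, against 16.02, 16.04 and 15.83 FPKM in mock cells. The mean was 0.821 times the mock mean (log2 change -0.27 ± 0.06 SE, adjusted p 0.00995, limma), and the groups did not overlap; fitted on these 2 groups alone the call was lost (adjusted p 0.0675). After 12 h of TGFb the values were 15.2, 15.3 and 14.4 FPKM, still under all 3 mock libraries, but the difference of -0.09 on the log2 scale did not pass (95% interval -0.21 to 0.03, adjusted p 0.236, limma). Against 1 h the 12 h level was higher by 0.18 on the log2 scale (adjusted p 0.0187, limma). This call was lost without TGFb 1 h replicate 2 (adjusted p 0.0530), without TGFb 12 h replicate 1 (0.0521), without TGFb 12 h replicate 2 (0.0604) and with only these groups fitted (0.104). With FT895, CDKN1B was at 14.1, 14.8 and 14.9 FPKM at 12 h, against 12.48, 12.76 and 11.21 FPKM at 1 h, a rise of 0.25 (95% interval 0.13 to 0.37, adjusted p 0.00302, limma).

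CDKN1C, the p57 gene, was the lowest of the 8, between 0.802 and 2.51 FPKM, a range where the log2(FPKM + 1) scale understates changes. It was at 1.64, 1.89 and 1.71 FPKM after 1 h and 1.22, 1.46 and 1.27 FPKM after 12 h of TGFb, against 1.03, 1.90 and 1.54 FPKM in mock cells. The mock libraries span both TGFb groups, and neither difference from mock passed (log2 change 0.16 at 1 h, adjusted p 0.489, and -0.09 at 12 h, adjusted p 0.648, limma). With FT895 it stood at 1.21, 0.802 and 1.39 FPKM at 12 h, against 1.94, 1.63 and 2.51 FPKM at 1 h, and this fall of 0.51 on the log2 scale passed (95% interval -0.80 to -0.21, adjusted p 0.0105, limma). The call was lost without the FT895 library 1 h replicate 3 (log2 change -0.39, adjusted p 0.0540) or 12 h replicate 2 (log2 change -0.39, adjusted p 0.0558). Without FT895 the 12 h against 1 h difference was -0.25 (95% interval -0.55 to 0.05, adjusted p 0.171, limma), with groups that did not overlap.

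Among the INK4 genes CDKN2B, which encodes p15 and is a classical target of TGFb, changed most, and it did so late. After 12 h of TGFb it stood at 20.9, 18.6 and 20.4 FPKM, against 5.38, 4.73 and 5.45 FPKM in mock cells. The lowest 12 h library was far above the highest mock library, and the mean was 3.85 times as high (log2 change 1.76 ± 0.09 SE, adjusted p 1.28e-09, limma). By p this placed CDKN2B at rank 105 of the 12467 loci. After 1 h it was still at 4.39, 4.51 and 5.02 FPKM, overlapping mock (log2 change -0.13, 95% interval -0.33 to 0.06, adjusted p 0.363, limma). The 12 h level was 4.31 times the 1 h level without FT895 (log2 change 1.90, adjusted p 1.01e-09, limma). With FT895 it was at 17.9, 19.0 and 19.0 FPKM at 12 h, against 4.95, 6.15 and 4.46 FPKM at 1 h, 3.59 times as high (log2 change 1.68, adjusted p 3.49e-09, limma).

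CDKN2D, the p19 gene, also rose by 12 h, with a wider spread. Its level was 8.36, 7.12 and 9.69 FPKM after 12 h of TGFb, against 4.98, 5.33 and 5.41 FPKM in mock cells. The groups did not overlap, and the mean was 1.60 times as high (log2 change 0.58 ± 0.13 SE, adjusted p 0.00212, limma). After 1 h the 3 libraries held 6.50, 4.46 and 5.65 FPKM, on both sides of mock (log2 change 0.06, 95% interval -0.21 to 0.33, adjusted p 0.809, limma). The 12 h level was higher than the 1 h level without FT895 (log2 change 0.53, adjusted p 0.00414, limma). With FT895 it was at 6.94, 9.70 and 8.96 FPKM at 12 h, against 5.75, 5.83 and 5.79 FPKM at 1 h (log2 change 0.48, adjusted p 0.00799, limma).

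CDKN2C, which encodes p18, was the steadiest of the 8 genes, between 23.4 and 32.4 FPKM in all 15 libraries. It stood at 31.1, 23.4 and 27.4 FPKM after 1 h and 29.1, 32.4 and 31.6 FPKM after 12 h of TGFb, against 28.7, 30.3 and 28.7 FPKM in mock cells. Both TGFb groups overlapped mock, and neither difference passed (log2 change -0.10, 95% interval -0.28 to 0.07, at 1 h and 0.08, 95% interval -0.09 to 0.26, at 12 h). Between 12 h and 1 h of TGFb the change of 0.19 did not pass either (adjusted p 0.0858, limma). It passed without TGFb 1 h replicate 1 (0.28, adjusted p 0.00575), with quantile normalization (0.24, adjusted p 0.0215) and with median-of-ratios scaling (0.24, adjusted p 0.0388). With FT895 CDKN2C was at 29.29, 28.97 and 28.38 FPKM at 12 h, against 24.5, 25.6 and 27.9 FPKM at 1 h, without overlap but not called (log2 change 0.15, adjusted p 0.171, limma); both scalings gave a call (adjusted p 0.0429 and 0.0322).

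CDKN2A, which encodes p16 and ARF (merged in the values per gene), had the highest level of the set in each library. It stood at 103.8, 179.6 and 157 FPKM after 1 h of TGFb, against 190.1, 179.8 and 180.4 FPKM in mock cells. The first of these libraries is the one that stood apart from its group, and the highest of the 3 lay just under the lowest mock library. The log2 difference of -0.35 did not pass (95% interval -0.66 to -0.05, adjusted p 0.137, limma). Leaving out 1 library at a time moved it between -0.52 and -0.12, and it passed without TGFb 1 h replicate 2 (adjusted p 0.0273). After 12 h of TGFb CDKN2A was at 228, 188 and 227 FPKM, overlapping mock (log2 change 0.22, 95% interval -0.09 to 0.53, adjusted p 0.253, limma). This difference passed with only these groups fitted (adjusted p 0.0438) and without TGFb 1 h replicate 1 (adjusted p 0.0287). The 12 h level was above the 1 h level (log2 change 0.57, adjusted p 0.00567, limma); without TGFb 1 h replicate 1 the change was 0.34 (adjusted p 0.00528), and the fit on these groups alone lost the call (adjusted p 0.0612). With FT895 the values were 200.0, 208 and 227 FPKM at 12 h, against 202, 192 and 212 FPKM at 1 h, with a log2 change of 0.07 that did not pass (adjusted p 0.749, limma).

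MYC fell within the first hour, and its 12 h values overlapped those of mock cells again. It stood at 54.7, 61.8 and 63.9 FPKM after 1 h of TGFb, against 104, 96.5 and 106 FPKM in mock cells. All 3 TGFb libraries lay under all 3 mock libraries, and the mean was 0.589 times the mock mean (log2 change -0.76 ± 0.07 SE, adjusted p 3.62e-06, limma). After 12 h of TGFb the values were 103, 111 and 104 FPKM, overlapping mock, and the difference of 0.05 did not pass (95% interval -0.09 to 0.20, adjusted p 0.586, limma). The 12 h level was 1.76 times the 1 h level (log2 change 0.81, adjusted p 3.97e-07, limma). With FT895 MYC was at 112, 110.3 and 116 FPKM at 12 h, against 56.7, 59.7 and 65.8 FPKM at 1 h, 1.86 times as high (log2 change 0.89, adjusted p 1.56e-07, limma).

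**Figure D3:**
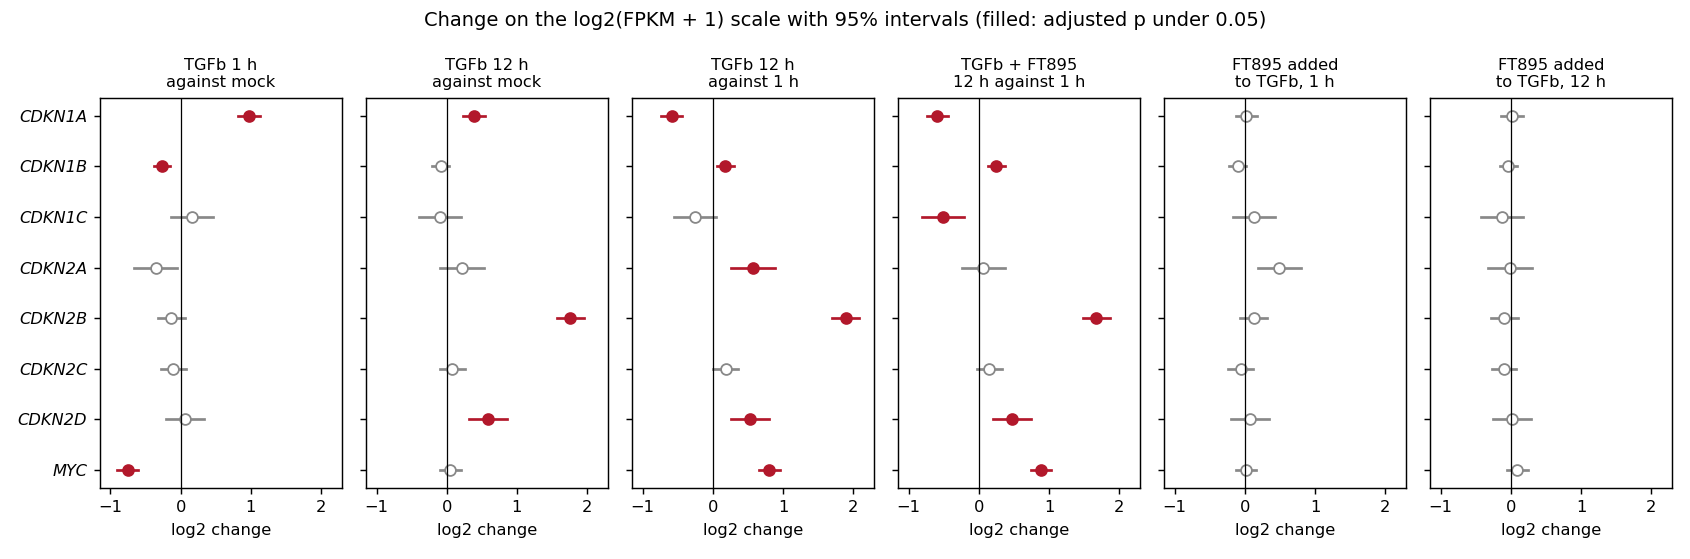
Log2 changes of the 8 genes on the log2(FPKM + 1) scale (x axis) with 95% intervals in 6 comparisons; filled points have an adjusted p under 0.05 (limma). CDKN2B has the largest changes of all in the panels of 12 h against mock (1.76) and 12 h against 1 h (1.90 without and 1.68 with FT895), CDKN1A has the largest at 1 h against mock (0.97), and no point is filled in the 2 panels of FT895 added to TGFb.

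By median FPKM over the 15 libraries the order was CDKN2A (192), MYC (103), CDKN2C (28.7), CDKN1B (14.4), CDKN1A (8.95), CDKN2D (5.83), CDKN2B (5.45) and CDKN1C (1.54). FPKM is scaled by length, so these levels can be set side by side, but only roughly. Reads of overlapping genes cannot be told apart, and p16 and ARF are merged in CDKN2A. The order differs between groups: by group mean CDKN2B was at rank 4 in both 12 h groups (18.6 FPKM with FT895 and 20.0 FPKM with TGFb alone), above CDKN1B, CDKN1A and CDKN2D, and at rank 7 in both 1 h groups and in mock cells. CDKN1A was above CDKN1B in both 1 h groups and below it in the others. The neighbours CDKN1B and CDKN1A overlap in range (11.2 to 16.04 and 6.02 to 14.7 FPKM), and so do CDKN2D and CDKN2B (4.46 to 9.70 and 4.39 to 20.9 FPKM). CDKN2A supplied most of the FPKM summed over the 7 inhibitors: 72.4% ± 1.1 with FT895 at 12 h, 71.6% ± 2.2 with TGFb alone at 12 h, 75.6% ± 0.7 with FT895 at 1 h, 68.2% ± 7.8 with TGFb alone at 1 h and 74.3% ± 0.8 in mock cells (SD, n = 3). The share of CDKN2B in that sum was 6.69% ± 0.16 after 12 h of TGFb, against 2.10% ± 0.15 in mock cells. In FPKM, CDKN2A was thus 10.7 ± 0.5 times CDKN2B after 12 h of TGFb and 31.6 ± 8.1 times after 1 h, against 35.5 ± 2.5 times in mock cells. MYC was 4.42 ± 0.32 times CDKN1A after 1 h of TGFb and 12.1 ± 0.5 times after 12 h, against 15.9 ± 1.5 times in mock cells. All libraries of both TGFb groups lay under every mock library (14.7, 15.4 and 17.5).

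None of the 8 genes was called between TGFb with FT895 and TGFb with vehicle, at either time, where 0.0722% of all loci were called at 1 h and 0.016% at 12 h (limma). At an unadjusted p under 0.05 there was 1 of the 8 at 1 h, where 13.8% of all loci were, and 0 at 12 h, where 6.15% were, so neither count stands out. CDKN1A was at 13.9 ± 1.1 FPKM with FT895, against 13.6 ± 0.4 FPKM with vehicle at 1 h (SD, n = 3 each), a log2 difference of 0.02 with a 95% interval of -0.13 to 0.17. MYC was at 60.7 ± 4.6 FPKM with FT895, against 60.1 ± 4.8 FPKM with vehicle at 1 h, a difference of 0.01 (95% interval -0.13 to 0.16). For CDKN2B at 12 h the levels were 18.6 ± 0.7 FPKM with FT895 and 20.0 ± 1.2 FPKM with vehicle, a difference of -0.09 (95% interval -0.29 to 0.10). CDKN2D at 12 h was at 8.54 ± 1.43 FPKM with FT895, against 8.39 ± 1.29 FPKM with vehicle, a difference of 0.02 (95% interval -0.25 to 0.29). These intervals leave room for shifts of the size of their bounds and do not show that the levels are alike. The widest interval at 12 h among the 8 was that of CDKN2A (difference -0.02, 95% interval -0.33 to 0.29), and the narrowest that of CDKN1B (difference -0.04, 95% interval -0.15 to 0.08).

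CDKN2A at 1 h was the exception at the unadjusted level, and it rests in part on 1 library. It stood at 202, 192 and 212 FPKM with FT895, against 103.8, 179.6 and 157 FPKM with vehicle, and the groups did not overlap. The log2 difference was 0.49 (95% interval 0.18 to 0.80, unadjusted p 0.00416, adjusted p 0.199, limma), and the mean was 1.37 times as high, or 1.20 times without TGFb 1 h replicate 1 (log2 difference 0.26, adjusted p 0.191). It was the only one of the 8 without overlap at 1 h, where 16.3% of all loci had none, and at 12 h there was no such gene, where 13.9% of all loci had none; these counts are near the background. The FT895 difference at 12 h minus that at 1 h was not called for any of the 8 genes, where 0.168% of all loci were called (limma); at an unadjusted p under 0.05, where 7.84% of all loci were, there was 1, CDKN2A (-0.51, 95% interval -0.95 to -0.07, unadjusted p 0.0258, adjusted p 0.611).

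The genes around these inhibitors and MYC were called more often at 12 h than at 1 h of TGFb, as were all loci (8.98% at 1 h and 38.6% at 12 h), and each list is read against those shares. Of 30 MYC target genes tested (31 listed, ribosome assembly and nucleotide synthesis among them), 0 were higher and 23 lower after 12 h of TGFb against mock, 76.7% against the 38.6% of all loci, with a median log2 change of -0.40 where all loci had -0.08. The median stayed below 0 with both scalings (-0.32 and -0.36), and 1 was higher and 27 lower without TGFb 1 h replicate 1. MYC itself was not called at this time. ODC1, the first enzyme of polyamine synthesis, was at 17.98 FPKM after 12 h of TGFb, against 41.5 FPKM in mock cells (log2 change -1.16, adjusted p 1.32e-08, limma). NOP56, a part of the small nucleolar particles that guide methylation of ribosomal RNA, was at 55.0 FPKM against 90.9 FPKM in mock cells, and the nucleolar protein gene NCL at 161 FPKM against 229 FPKM in mock cells. After 1 h, when MYC was low, 0 of the 30 were higher and 3 lower (POLR1B, PPAT and WDR43), with a median of -0.01 where all loci had -0.03; median-of-ratios scaling turned this to 1 and 1, and leaving out TGFb 1 h replicate 1 to 2 and 2. In the MYC, MAX and MXD network (10 of 12 tested), none was called at 1 h against mock, with 1 at an unadjusted p under 0.05, where 26.5% of all loci were. At 12 h, 3 of the 10 were called, under the share of all loci: MLXIP, a glucose-sensing partner of MLX, rose (40.0 FPKM against 17.6 FPKM in mock cells, adjusted p 2.74e-07), MXD3 rose and MGA fell.

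Cyclins, CDKs and the CDC25 phosphatases were called in both directions. Of 18 genes for cyclins, CDKs and CDC25 phosphatases, 1 was higher and 1 lower after 1 h of TGFb against mock, and 6 were higher and 5 lower after 12 h (11.1% called at 1 h and 61.1% at 12 h). CCNE2, a cyclin that activates CDK2, was at 6.77 FPKM after 12 h, against 14.5 FPKM in mock cells (adjusted p 4.8e-05, limma), and CDC25A and CCNH fell as well. CCNB2, a mitotic cyclin, was at 47.8 FPKM after 12 h, against 36.5 FPKM in mock cells (log2 change 0.38, adjusted p 0.00015, limma). Of 19 genes of RB, E2F and the DREAM complex, 2 were higher and 2 lower at 1 h, and 1 higher and 7 lower at 12 h (3 and 5 with median-of-ratios scaling). The 42.1% called at 12 h are near the 38.6% of all loci. E2F1, which RB holds back, was at 27.7 FPKM after 1 h and 15.1 FPKM after 12 h, against 23.1 FPKM in mock cells, a rise at 1 h and a fall at 12 h that both passed (log2 change 0.26 and -0.58, limma), and E2F2, RBL1 and E2F8 were lower too. Of 16 ubiquitin ligase and protease genes that act on p21, p27, p57 or MYC, 1 was lower at 1 h (USP28). At 12 h 1 was higher and 4 lower, 31.2% and thus no more than among all loci; SKP2, the ligase subunit that marks p27 for destruction, was at 10.1 FPKM against 15.8 FPKM in mock cells (adjusted p 0.00264, limma).

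Regulators of the CDKN genes included ID1 and KDM6B, the 2 largest changes among all these lists after 1 h. Of 26 tested (30 listed), 3 were higher and 1 lower after 1 h of TGFb against mock, and 5 were higher and 9 lower after 12 h (6 and 5 with median-of-ratios scaling), or 15.4% called at 1 h and 53.8% at 12 h. ID1, which binds and blocks helix-loop-helix factors and is known to repress CDKN2A, was at 169 FPKM after 1 h, against 31.0 FPKM in mock cells (log2 change 2.41, adjusted p 1.03e-09, limma). KDM6B, a histone H3 demethylase, was at 11.2 FPKM after 1 h and 13.7 FPKM after 12 h, against 3.14 FPKM in mock cells, and both differences passed. ETS2 rose at both times, KLF6 fell at 1 h, and SMAD3 and TFAP4 fell at 12 h. Of 16 p53 targets other than CDKN1A, 2 were higher (PLK3 and AEN) and none lower at 1 h. At 12 h 3 were higher and 5 lower. These are 12.5% and 50% of the 16, where 8.98% and 38.6% of all loci were called. Both scalings gave 3 higher and 0 lower at 1 h, and 4 higher and 4 lower at 12 h. GDF15, a p53 and stress target, was at 1.30 FPKM after 12 h, against 4.31 FPKM in mock cells, while TP53I3 was at 8.47 FPKM against 4.54 FPKM in mock cells. Of the neighbouring genes at the CDKN2A, CDKN1C and MYC loci, MTAP was tested and was not called in either comparison with mock (unadjusted p over 0.05 in both). CDKN2B-AS1, KCNQ1OT1, PVT1 and CASC11 were not found by symbol among the loci and could not be analysed. Of the 136 genes in these 8 lists, none was called between FT895 and vehicle at 1 h or at 12 h, with 17 at an unadjusted p under 0.05 at each time (limma). The same level was reached by 13.8% of all loci at 1 h, near the 17 of 136, and by 6.15% at 12 h, below it. Of the 17 at 12 h, 9 were among the 30 MYC target genes tested, 8 higher and 1 lower with FT895. The median log2 difference of these 30 was 0.12, where all loci had 0.01.

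**Figure D4:**
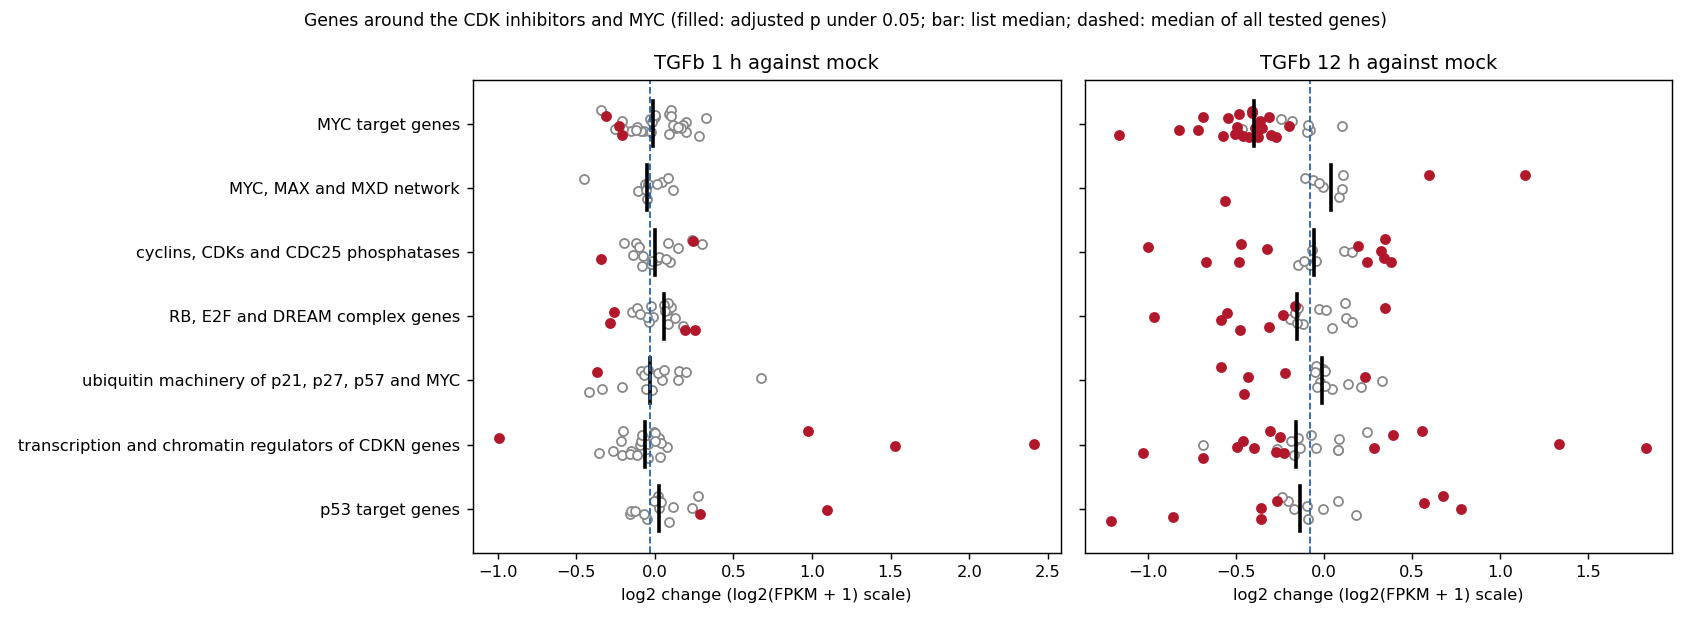
Log2 change of each tested gene in 7 lists around the inhibitors and MYC after 1 h (left) and 12 h (right) of TGFb against mock, on the log2(FPKM + 1) scale; filled points have an adjusted p under 0.05, bars are list medians and the dashed line is the median of all loci tested. The MYC target genes sit at a median of -0.40 at 12 h and of -0.01 at 1 h.

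The genes whose pattern over the 15 libraries was most like that of each of the 8 were taken by Pearson r of log2(FPKM + 1) among 2604 genes whose group means span at least 0.5. The r values describe shared group patterns of the same libraries and carry no p. For CDKN1A they were ID3 (r = 0.979), ZFP36 (0.976) and CSRNP1 (0.974), and for MYC they were KLF6 (0.971), BCL6 (0.922) and HLX (0.915). MBOAT2 (0.994) and PRICKLE2 (0.993) were among the 3 most like CDKN2B. For CDKN1B they were PLK2 (0.914), SGK1 (0.882) and KLF6 (0.858), so that KLF6 is among the 3 nearest of both CDKN1B and MYC. MED8 (0.934), SLN (0.931) and NPC2 (0.930) were nearest to CDKN2D. The values for CDKN2A lean on the library that stood apart: SETD5 had r = 0.947, or 0.799 without TGFb 1 h replicate 1, ITPR3 0.917 or 0.673, and HSPB1 0.909 or 0.873. CDKN2C and CDKN1C had weaker neighbours, TM2D2 (0.874), PSRC1 (0.688) and ING4 (0.687) for CDKN2C and RPUSD1 (0.814), ZNF319 (0.786) and TMEM177 (0.781) for CDKN1C. The group means of CDKN2C span 0.25 and those of CDKN1B 0.37, under the 0.5 required of the candidates. Genes as steady as these were left out in advance, so their r values say little about how unusual their patterns are.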

How the data were processed

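Polyadenylated RNA of HK-2 cells came from a Trizol extraction followed by DNase I, per the labels' protocols. Alignment with HISAT2, quantification with StringTie and the build GRCh38 are named in the submitters' processing notes, without versions, annotation release or strandedness. The authors deposited FPKM, 1 column per library. All 19974 Ensembl identifiers matched GENCODE v29; the other 4906 loci are unannotated. No read unit could be recovered from low values (the fullest bin held 1.59 to 2.76% of 693 to 807 loci), so depth is unknown and no counting intervals are given.

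Values were analysed as log2(FPKM + 1), which understates changes of low genes. Loci with at least 1 FPKM in at least 3 of 15 libraries (12467, of which 931 unannotated) were fitted in limma 3.58.1 under R 4.3.3 with 1 mean per group (two-sided, trended eBayes, 10 residual degrees of freedom). Benjamini-Hochberg adjustment ran over all loci within each of 7 comparisons. The fit was tested on simulated data. Named genes are the 8 described, up to 4 of smallest adjusted p per list, and the 3 most alike per gene; a few genes are not reported here. The genes and lists were chosen with earlier results of these data known. Alternatives were another pseudocount, no filter, 2 scalings, fewer groups, no trend, the replicate number as a block and each library left out. The r values and the list counts without TGFb 1 h replicate 1 and the list counts under both scalings, were chosen after seeing the data. Promoter windows come from RefSeq (GRCh38.p14).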

Additional observations from a re-analysis of the deposited data

How the results depend on the processing

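Over 22 alternative settings the number of the 8 genes called stayed within 1.5 times its value in each of the 7 comparisons: 2 to 4 after 1 h of TGFb against mock, 3 to 4 after 12 h, 4 to 7 between 12 h and 1 h of TGFb, 5 to 7 with FT895 present, and 0 in every setting for FT895. Of 1232 single results, 1216 kept their direction and side of the threshold, 8 gained a call, 8 lost one and 0 reversed; the report names these beside the gene. Values changed sign in 36 cases, all for changes that were not called (at most 0.0903 on the log2 scale). The background moved more: the share of all loci called after 1 h against mock was 3.44% without the filter on low values, 2.99% with only these groups fitted, and 3.34% to 4.4% without 1 mock library. After 12 h it was 23.2% without the filter. Between 12 h and 1 h it was 24.1% without the filter and 25.6% with only these groups fitted, and with FT895 22.6% without the filter. For FT895 it ran from 0.00802% to 0.152% at 1 h and from 0.00802% to 0.353% at 12 h; the cause was not tested. Same-numbered libraries showed no common deviation (30 pairs, r from -0.137 to 0.113, 2 over 0.1). Pairs with different numbers ran from -0.261 to 0.186 (60 pairs, 4 over 0.1). A small shared deviation could be missed with 3 libraries per group, so whether the numbers pair the samples stays unknown. With the replicate number as a replicate block, 3 of the 8 genes were called after 1 h against mock, 3 after 12 h, 6 between the times with and without FT895, and 0 for FT895. Unknown depth limits CDKN1C most, whose values lie near 1 FPKM.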
